A study of Mus musculus with 12 samples.

Results

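The cytokine, chemokine and receptor families of the mouse were examined in mammary tumors treated with a retinoid X receptor (RXR) agonist. The members were the genes whose symbols begin with Ccl, Cxcl, Ccr, Cxcr, Il or Csf and a number, or with Tnf, Ifn or Tgfb, in either of the deposited tables, of which one compares V-125 with control and the other bexarotene with control. Genes without a read in all 4 tumors of the control or V-125 group would have been removed, which removed 0 genes, and 1 receptor gene was set aside. This left 26 of the 2876 genes in either table. They comprised 9 genes of the tumor necrosis factor (TNF) family or its signaling, 5 chemokine genes, 5 interleukin genes, 3 colony-stimulating factor receptor genes, 2 interferon receptor genes and 2 genes of the TGF-beta family. The V-125 table held 14 of them among its 1589 genes and the one for bexarotene held 16 among its 1784 genes, with 4 members in both.

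All tumors came from female MMTV-Neu mice, in which a neu transgene (the rodent form of HER2) is expressed from the mouse mammary tumor virus promoter, which is active mainly in mammary epithelium. Tumor-bearing mice received a control diet with vehicle, diet with 100 mg per kg of V-125 or of bexarotene, for 10 days, with 4 mice per group. V-125 is an RXR agonist developed as an alternative to bexarotene, an RXR agonist used in the clinic. Poly(A)-enriched RNA of the bulk tumors was sequenced, so each value sums tumor cells, stroma and infiltrating leukocytes, and fewer cells of a type cannot be told apart from less RNA per cell. The ages of the mice are not given in the sources used here.

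Chemokines of the CC and CXC classes guide leukocytes through G protein-coupled receptors, while interleukins, interferons and colony-stimulating factors act mostly through receptors that use JAK kinases and STAT factors. TNF family ligands act through trimeric receptors that recruit TRAF adaptors and activate NF-kB, and TGF-beta ligands act through receptor kinases and SMAD factors. RXR forms dimers with other nuclear receptors, several of which are known to restrain cytokine genes in macrophages.

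The reads counted on genes ranged from 15571690 to 22574865 in the 4 control tumors and from 17070644 to 19098630 in the 4 V-125 tumors. Values below are normalized counts, that is, read counts divided by the size factor of each library, and are given per tumor for V-125 and control but only as the authors' group mean for bexarotene. The 2 of 6 defining epithelial markers listed for V-125, Epcam and Cdh1, were abundant in all 8 tumors with values of their own. Their summed normalized counts were 34079 to 41053 in V-125 tumors and 43376 to 62618 in control tumors. Both had lower means in V-125 tumors. Epcam was lower without overlap (28480 to 34950 against 37940 to 53470), and Cdh1 with overlap. The part of epithelial content in the values of the members was not tested. Each table stops at an unadjusted p of 0.05 in the comparison made by the authors, so every member was chosen on the difference described below, and these differences are a description and not independent evidence of a treatment effect. For the same reason, an absent gene is one that is not listed, and its level is not known here.

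Upstream sequence of 4 members is shown because each holds a match to the kB consensus, the sequence bound by NF-kB, and because these genes carry results below. The windows are the 250 bases before the RefSeq start on GRCm38.p6, written 5' to 3' on the strand of the gene, and 18 of the 26 members had such a window. The annotation used for gene positions in this report differs: there Tnfaip3 ends at 19015657, Cxcl2 starts at 90903871 and Tgfbrap1 ends at 43098637. By it, nearly all of the Tnfaip3 window and the bases at 1 end of the Cxcl2 and Tgfbrap1 windows lie inside the gene. Capitals mark the kB match, on either strand.
Cxcl2 (chr5:90903649-90903898, plus strand): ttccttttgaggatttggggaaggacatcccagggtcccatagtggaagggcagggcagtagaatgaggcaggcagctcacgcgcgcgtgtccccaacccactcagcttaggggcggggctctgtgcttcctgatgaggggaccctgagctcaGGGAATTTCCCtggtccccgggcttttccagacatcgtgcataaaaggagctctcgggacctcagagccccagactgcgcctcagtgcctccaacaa
Tnfaip3 (chr10:19015411-19015660, minus strand): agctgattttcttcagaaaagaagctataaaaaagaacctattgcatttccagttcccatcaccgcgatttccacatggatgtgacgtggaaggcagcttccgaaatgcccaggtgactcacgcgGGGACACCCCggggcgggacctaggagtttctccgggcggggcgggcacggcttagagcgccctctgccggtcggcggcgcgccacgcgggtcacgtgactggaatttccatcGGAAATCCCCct
Ccr1 (chr9:123968693-123968942, minus strand): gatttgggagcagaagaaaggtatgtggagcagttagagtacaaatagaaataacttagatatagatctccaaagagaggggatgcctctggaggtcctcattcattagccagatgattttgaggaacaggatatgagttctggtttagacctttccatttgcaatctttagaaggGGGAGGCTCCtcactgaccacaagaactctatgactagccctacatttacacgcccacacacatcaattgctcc
Tgfbrap1 (chr1:43098629-43098878, minus strand): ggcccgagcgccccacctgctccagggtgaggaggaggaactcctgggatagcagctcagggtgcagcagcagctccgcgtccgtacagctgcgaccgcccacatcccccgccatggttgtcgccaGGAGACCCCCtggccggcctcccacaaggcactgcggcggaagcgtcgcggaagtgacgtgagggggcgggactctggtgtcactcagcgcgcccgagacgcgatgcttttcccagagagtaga

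A kB match was present in 5 of the 18 windows (27.8%), those of Ccr1, Cxcl2, Tgfbrap1, Tnfaip2 and Tnfaip3, against 7.03% of 27025 promoters. The half-site AGGTCA, a core of nuclear receptor response elements, was in 0 of 18 windows against 13.8% of all promoters, and its variant GGGTCA was in 3 of 18 (16.7%) against 11.5%. The AP-1 motif TGANTCA was in 1 of 18 (5.56%), that of Tnfaip3, against 6.85%, and TATAAA was in 3 of 18 (16.7%), those of Ccl12, Tnf and Tnfaip3, against 13.0%. All motifs were searched on both strands, and a match is a description of the letters and not of binding.

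In V-125-treated tumors, most ligands among the members had lower levels than in control tumors, and the higher members were mostly receptors and regulators. Of the 14 members of the V-125 table, 8 had a lower and 6 a higher group mean, and the lower ones (57.1%) compare with 48.6% of all genes in that table, where 51.4% were higher. The means differed by more than 2-fold for 5 members (35.7%, against 44.0% of all listed genes), with 3 of them higher (background 22.4%) and 2 lower (background 21.6%). These ratios include a pseudocount of 1, and without it Il4 and Tnf, both lower, also pass 2-fold, which makes 3 higher and 4 lower. The ligands Ccl12, Cxcl2, Il4, Il17b, Tnf and Tgfb3 were lower, which is 6 of the 7 ligands among the members, and Cxcl17 was the higher one. The ligand Eda, which is not a member by its symbol, was also listed and was higher (mean 91.7 against 44.65). Of the 4 receptors listed, Ccr1 and Csf2rb were higher and Il20rb and Tnfrsf12a lower, and the remaining members Il18bp, Tnfaip2 and Tgfbrap1 were all higher.

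No member passed an adjusted p of 0.05 in edgeR's quasi-likelihood test. This was 0 of the 12 members with enough reads to be fitted, against 9.00% of the 1333 genes fitted, and the Benjamini-Hochberg adjusted p-values of these members ranged from 0.0533 to 0.0890. At an unadjusted edgeR p under 0.05 there were 9 of 12, against 71.5% of the genes fitted. DESeq2 called 9 of 14 members (background 70.2%) and limma-voom called 1 of 12 (background 11.3%). The normalized counts of the groups did not overlap for 4 of 14 members (28.6%), against 38.6% of all listed genes. None of these shares is read as particular to the members. With 4 tumors per group the smallest two-sided p of the exact permutation test is 0.0286, which the members whose groups did not overlap reached.

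**Figure D1:**
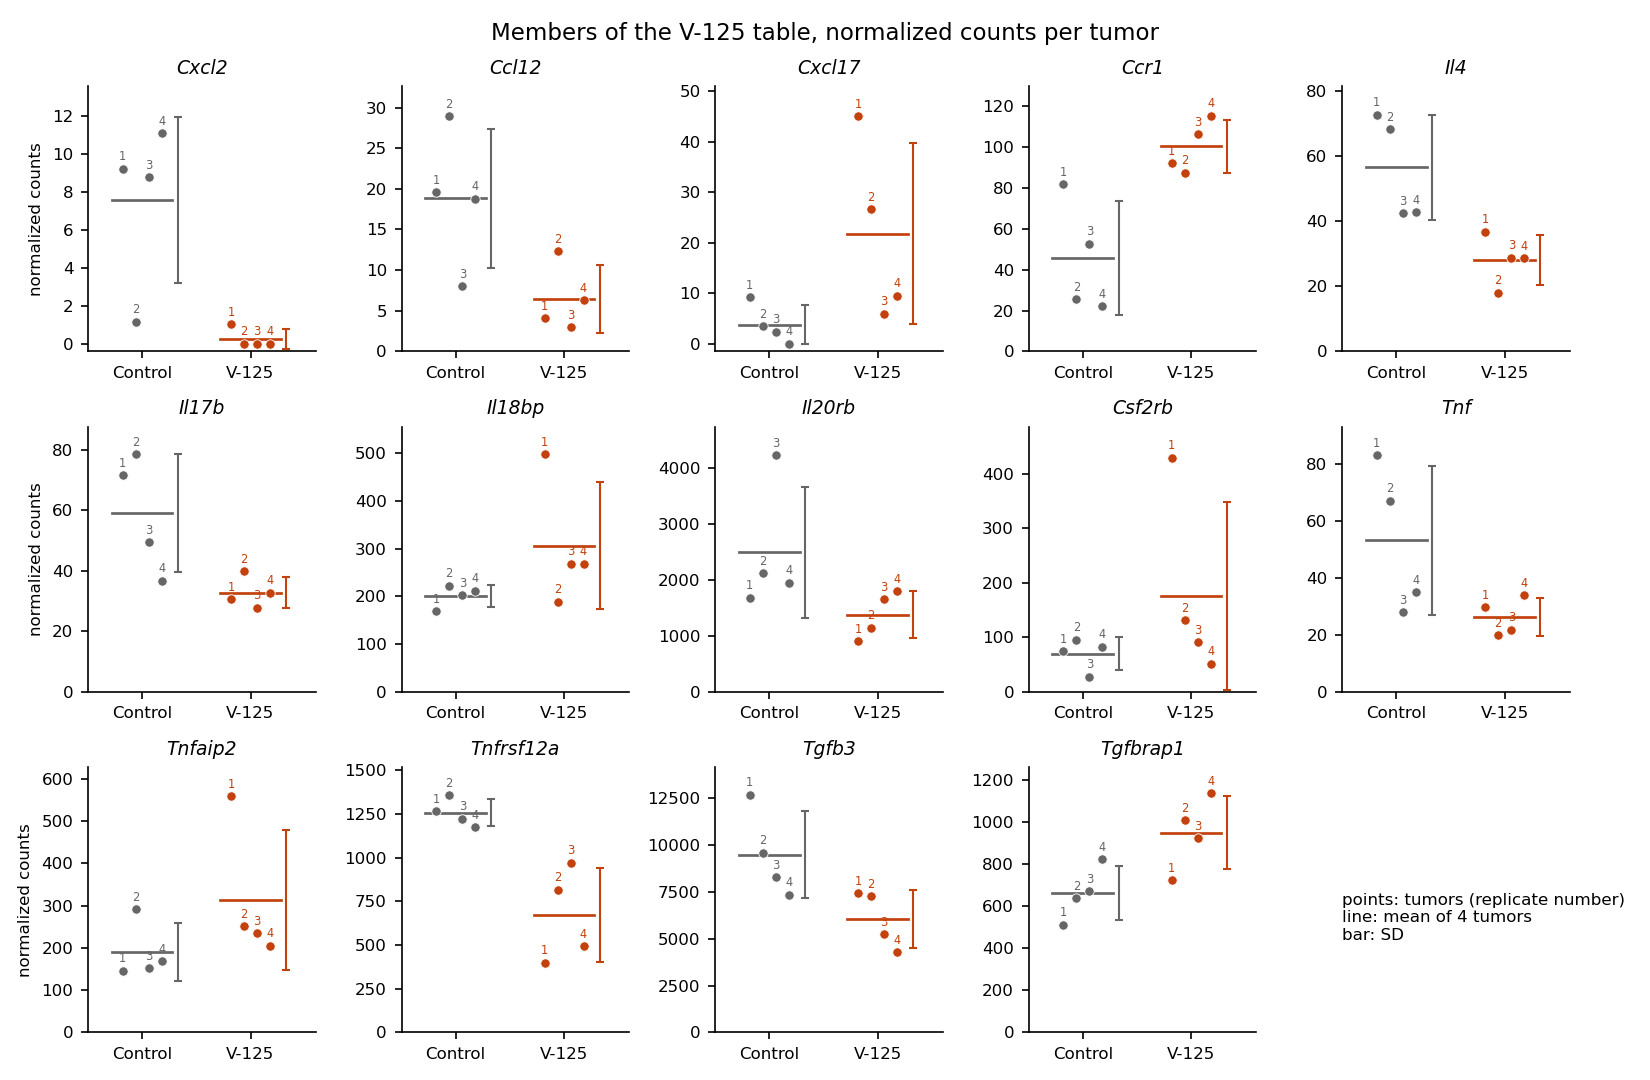
Normalized counts (linear axes) of the 14 members of the V-125 table in each control and V-125 tumor (points with replicate numbers), with the mean of 4 tumors (line) and the SD (bar). The groups are separate for Ccr1, Cxcl2, Il4 and Tnfrsf12a and overlap for the other 10 members.

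Among the chemokines, Cxcl2, a neutrophil attractant acting through Cxcr2, was near the limit of detection. The normalized counts of Cxcl2 were 9.22, 1.16, 8.79 and 11.1 in the 4 control tumors and 1.02, 0, 0 and 0 in the 4 V-125 tumors. The group means were 7.57 ± 4.39 (SD, n = 4) in control tumors and 0.255 ± 0.511 (SD, n = 4) in V-125 tumors. In reads, this was 33 over the 4 control tumors and 1 over the 4 V-125 tumors, a 31.6-fold ratio with a 95% interval of 5.30 to 1287 that covers counting error only. The lowest control tumor and the highest V-125 tumor each held 1 read, so the separation of the groups (exact permutation p = 0.0286, two-sided) rests at that end on a difference in library scaling.

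Ccl12, an attractant of monocytes in the mouse, was also low in abundance and lower in V-125 tumors. Its mean was 6.44 ± 4.18 normalized counts in V-125 tumors and 18.8 ± 8.56 in control tumors (SD, n = 4 each; log2 fold change -1.51, SE 0.63, edgeR adjusted p = 0.0670). The groups overlapped, since the highest V-125 tumor stood at 12.3 and the lowest control tumor at 7.99. Cxcl17, a mucosal chemokine, went the other way, with 21.8 ± 17.9 in V-125 tumors and 3.77 ± 3.91 in control tumors, and had too few reads for the edgeR fit (exact permutation p = 0.0571, two-sided). Its V-125 values ran from 5.96 to 45.0, the highest being replicate 1.

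Ccr1, the receptor of several CC chemokines on monocytes and neutrophils, was the only higher member whose groups were separate. Its normalized counts were 92.0, 87.4, 106 and 115 in the V-125 tumors and 81.9, 25.4, 52.7 and 22.2 in the control tumors. All V-125 tumors lay within a narrow band, and the highest control tumor, replicate 1, came close to it. The means were 100.2 ± 12.8 and 45.5 ± 27.8 (SD, n = 4 each), a log2 fold change of 1.14 (SE 0.44, edgeR adjusted p = 0.0666, exact permutation p = 0.0286). Separated higher groups were found in 21.1% of all listed genes, and 1 of 14 members showed them.

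Among the interleukins, Il4, the cytokine that drives type 2 T cell responses and alternative macrophage activation, was lower without overlap. Its normalized counts were 36.8, 18.05, 28.8 and 28.6 in V-125 tumors and 72.6, 68.2, 42.3 and 42.7 in control tumors. Control tumors 1 and 2 were higher than control tumors 3 and 4, and all 4 lay above the highest V-125 tumor. The means were 28.05 ± 7.69 and 56.5 ± 16.2 (SD, n = 4 each; log2 fold change -1.004, SE 0.38, edgeR adjusted p = 0.0666, exact permutation p = 0.0286). Il17b, a member of the IL-17 family, was lower with a log2 fold change of -0.84 (SE 0.37, edgeR adjusted p = 0.0688), and its groups overlapped.

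Il20rb encodes a subunit of the receptors for IL-19, IL-20 and IL-24, which act mainly on epithelia, and lies on the minus strand of chromosome 9 from 100457719 to 100486788 (GRCm38). Its normalized counts were 911, 1148, 1659 and 1795 in V-125 tumors and 1681, 2120.1, 4225 and 1951 in control tumors. Control tumor 3 stood far above the other 3 control tumors, and the highest V-125 tumor lay above the lowest control tumor. The means were 1378 ± 418 and 2494 ± 1168 (SD, n = 4 each; log2 fold change -0.86, SE 0.32, edgeR adjusted p = 0.0666). Without control tumor 3, the control mean was 1917 ± 222 (SD, n = 3) and the log2 ratio of the V-125 mean to it was -0.48.

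Tnf, the founding ligand of its family and a product of activated macrophages, had means of 26.3 ± 6.54 in V-125 tumors and 53.3 ± 26.1 in control tumors (SD, n = 4 each; log2 fold change -1.01, SE 0.45, edgeR adjusted p = 0.0696). The groups overlapped, because control tumor 3 stood at 27.95 and control tumor 4 just above the V-125 range of 19.9 to 33.8. Tnfrsf12a, the receptor of the ligand TWEAK and one found on epithelial cells, lies on the minus strand of chromosome 17 from 23675445 to 23677468 (GRCm38). Among the members Tnf, Tnfaip2 and Tnfrsf12a, only Tnfrsf12a had separate groups. Its normalized counts were 399, 818, 972 and 495 in V-125 tumors and 1268, 1359, 1224 and 1177 in control tumors. The control tumors lay close together and the V-125 tumors were more spread, with the highest of them still below every control tumor. The means were 671 ± 269 and 1257 ± 77.7 (SD, n = 4 each; log2 fold change -0.91, SE 0.27, exact permutation p = 0.0286), and the edgeR adjusted p of 0.0533 was the lowest of any member.

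In the TGF-beta family, the ligand Tgfb3 was lower and the receptor-associated Tgfbrap1 higher in V-125 tumors. The normalized counts of Tgfb3, which regulates epithelial growth and matrix in the mammary gland and lies on chromosome 12 from 86056745 to 86079041 (GRCm38), were 7420, 7257, 5253 and 4292 in V-125 tumors and 12684, 9589, 8272 and 7348 in control tumors. Only the lowest control tumor, replicate 4, fell below the highest V-125 tumor. The means were 6055 ± 1534 and 9473 ± 2330 (SD, n = 4 each; log2 fold change -0.65, SE 0.23, edgeR adjusted p = 0.0642).

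Tgfbrap1 encodes a protein that binds TGF-beta receptors and takes part in vesicle tethering, and lies on chromosome 1 from 43047200 to 43098637 (GRCm38). Its normalized counts were 725, 1011, 924 and 1138 in V-125 tumors and 512, 639, 673 and 824 in control tumors. The overlap came from V-125 tumor 1 and control tumor 4. The means were 949 ± 174 and 662 ± 128 (SD, n = 4 each; log2 fold change 0.52, SE 0.20, edgeR adjusted p = 0.0666). The length-adjusted FPKM scale was used only for the 14 members listed for V-125. Among these, Tgfb3 was the most abundant ligand, with a mean level of 155 in control tumors, ahead of the receptor genes Tnfrsf12a at 36.1 and Il20rb at 32.9. The next of these 14 members was Il17b, at 4.74.

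Csf2rb, Il18bp, Tnfaip2 and Cxcl17 were highest in V-125 replicate 1, and for the first 3 of these genes most of the difference between the group means came from that tumor. Csf2rb, the shared beta chain of the GM-CSF, IL-3 and IL-5 receptors, stood at 429 in that tumor and at 51.8 to 132 in the other 3. Il18bp, a secreted inhibitor of IL-18, stood at 498 against 189 to 269, and Tnfaip2, an endothelial and myeloid gene induced by TNF, at 560.0 against 205 to 252. The V-125 means of these genes therefore had wide errors, 176 ± 172 against 70.4 ± 29.6 for Csf2rb, 306 ± 133 against 201 ± 23.3 for Il18bp and 313 ± 166 against 190 ± 69.0 for Tnfaip2 (SD, n = 4 each). Their edgeR adjusted p-values were 0.0763, 0.0797 and 0.0890.

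Without V-125 replicate 1, the log2 ratio of the other 3 V-125 tumors to control was 0.38 for Csf2rb, 0.27 for Il18bp, 0.28 for Tnfaip2 and 1.66 for Cxcl17. Most of the difference in Cxcl17 thus stayed, and V-125 replicate 2, at 26.6, was also above every control tumor. Replicate 1 exceeded the mean of the other 3 V-125 tumors by 4.68 times for Csf2rb, 3.21 times for Cxcl17, 2.43 times for Tnfaip2 and 2.06 times for Il18bp. Ccr1 and Tgfbrap1, the remaining higher members, stood lower in replicate 1 than the mean of the other 3. Reads of Csf2rb may be shared with its near-identical neighbor Csf2rb2. The genes of 11 members, Cxcl17, Il18bp, Tnfaip2, Tgfb3 and Tgfbrap1 among them, overlap a gene on the opposite strand, and whether counting used strand is not given in the sources used here, so part of their reads could belong to that gene.

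Most of the leukocyte markers listed were also high in V-125 replicate 1, with Itgam as an exception. The 2 of 16 T cell markers listed, Cd2 and Cd28, summed to 261 normalized counts there, to 3.17 to 29.8 in the other V-125 tumors and to 0 to 6.39 in control tumors. The 3 of 12 macrophage markers listed (Fcgr1, Mertk and Itgam) summed to 971 in that tumor, to 302 to 415 in the other V-125 tumors and to 276 to 398 in control tumors. This sum follows Fcgr1 and Mertk, since Itgam, an integrin chain of myeloid cells, stood at 31.7 in V-125 replicate 1, at 30.7 to 60.6 in the other V-125 tumors and at 65.5 to 89.0 in control tumors, lower without overlap. Laptm5, the 1 of 5 pan-leukocyte markers listed, stood at 2661 against 584 to 900.5 and 392 to 777. Mzb1, the 1 of 8 B and plasma cell markers listed, stood at 48.0 against 1.90 to 5.96 and 0 to 5.59. No marker of NK cells, neutrophils or dendritic cells was listed, so their levels are not known here. The part of these cells in the values of Csf2rb, Il18bp, Tnfaip2 and Cxcl17 was not tested.

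**Figure D2:**
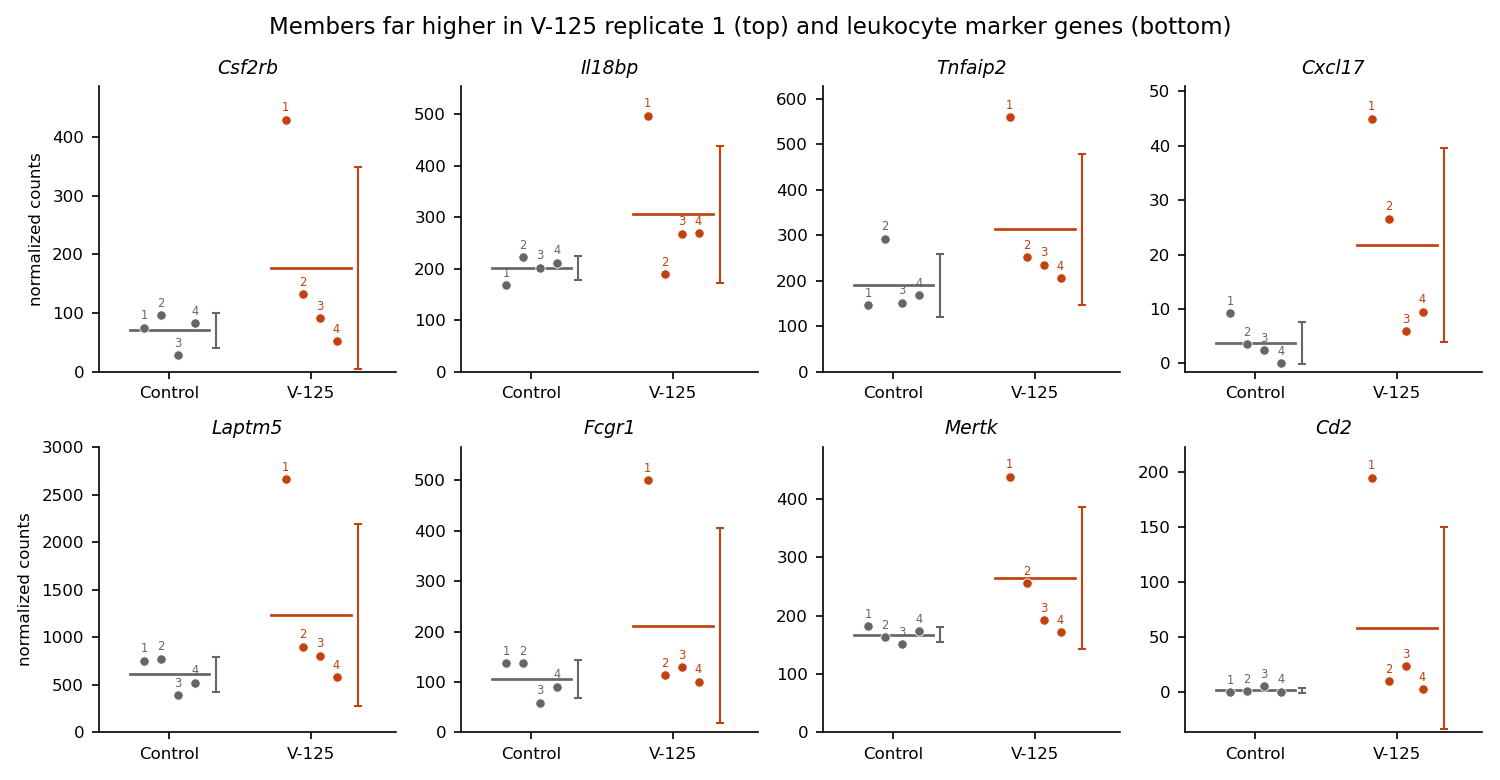
Normalized counts (linear axes) of Csf2rb, Il18bp, Tnfaip2 and Cxcl17 (top) and of the leukocyte markers Laptm5, Fcgr1, Mertk and Cd2 (bottom) in each control and V-125 tumor (points with replicate numbers), with the mean (line) and SD (bar) of 4 tumors. V-125 replicate 1 is the highest tumor in all panels shown, for example at 2661 for Laptm5, where no other tumor exceeds 900.5. The listed macrophage marker Itgam, which was lower in V-125 tumors without overlap, is not shown.

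In bexarotene-treated tumors, the group mean was below control for nearly every member. Genes of the TNF family or its signaling formed the largest group. Of the 16 members of that table, 14 were lower (87.5%, against 56.7% of all genes listed) and 2 were higher, Il20rb and Tgfbrap1. Among these members, all 7 genes of the TNF family or its signaling were lower, as were all 6 ligands and 7 of the 8 receptors. Members were chosen by symbol, which leaves out other TNF family ligands. Of those, Fasl was higher (10.8 against 0.862) and Ltb lower (19.8 against 46.2). The means differed by more than 2-fold for 8 of 16 members, all of them lower, against 44.3% of all listed genes in either direction and 28.1% of all listed genes lower. The median log2 ratio of the members was -0.99, against -0.56 over all listed genes. Only group means of bexarotene were used here, so these values have no error and none of these differences was tested.

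Among the ligands, Tnfsf8 (CD30 ligand), a cytokine of activated lymphocytes, had a mean of 0.230 normalized counts in bexarotene tumors and 14.5 in control tumors. The bexarotene mean times 4 tumors is 0.921, about 1 read, so no fold is given. Il34, a ligand of the receptor Csf1r, was 44.4 against 130.5, a log2 ratio of -1.53. Csf1r itself, the receptor that sustains macrophages, was 454 against 806 (log2 ratio -0.83).

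Tnfsf9 (4-1BB ligand), a costimulator of T cells, was 9.49 against 26.7 (log2 ratio -1.40), and Tnfsf13b (BAFF), a survival factor of B cells, was 9.37 against 25.8 (-1.37). Cxcl16, a transmembrane chemokine that attracts Cxcr6-bearing T cells, was 239 against 542 (-1.18). These ligands were thus at well below their control means, 35.5% for Tnfsf9, 36.3% for Tnfsf13b and 44.1% for Cxcl16. Tgfb3 was 5107 against 9424 (-0.88).

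Of the TNF receptors, Tnfrsf12a was 481 against 1250.0 (log2 ratio -1.38), Tnfrsf1b, the TNF receptor found mainly on leukocytes and endothelium, 147 against 324 (-1.14), and Tnfrsf14, the receptor of the ligand LIGHT, 65.4 against 141 (-1.10). The inhibitor Tnfaip3 (A20), which ends NF-kB signaling and is itself a target of NF-kB, was 98.8 against 155 (-0.65). The lower means therefore covered ligands and receptors of the TNF family and a feedback inhibitor of NF-kB signaling. The other receptor chains that were lower differed by less than 2-fold, from -0.46 for Ifngr1, a chain of the interferon-gamma receptor, to -0.67 for Ifnlr1, a chain of the type III interferon receptor, with the GM-CSF receptor chain Csf2ra at -0.55.

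**Figure D3:**
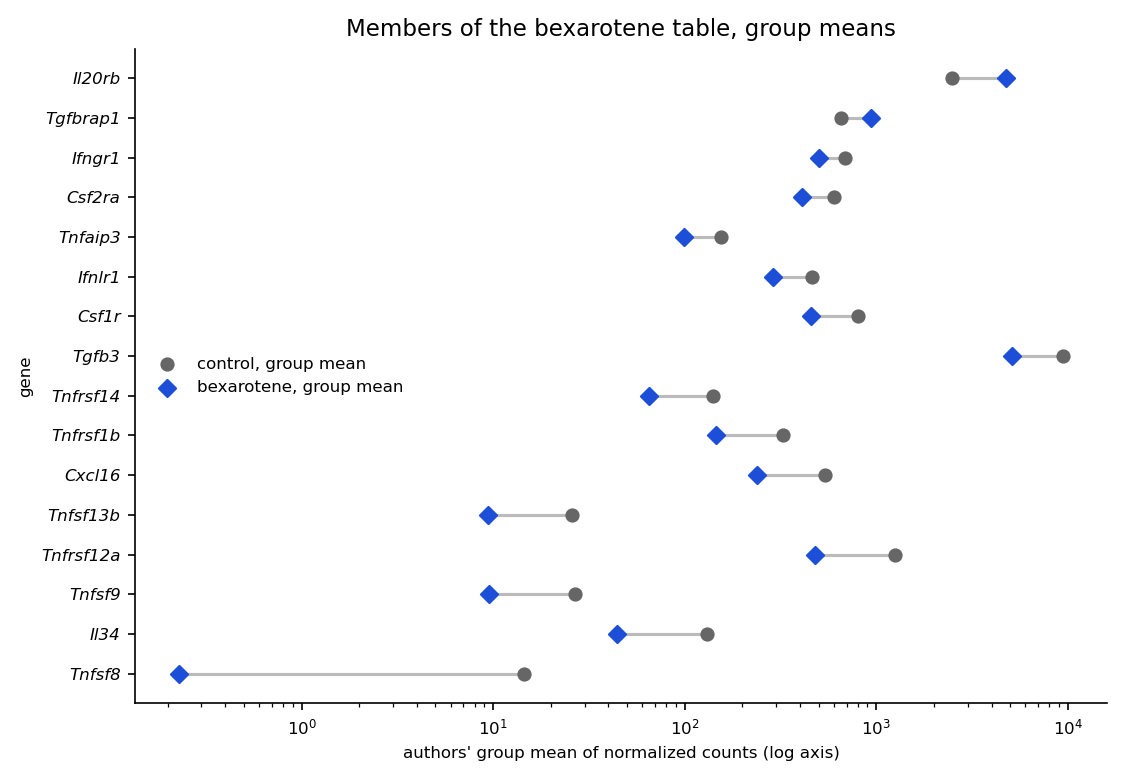
The authors' group means of normalized counts (log axis) in bexarotene and control tumors for the 16 members of that table, ordered by the log2 ratio. The bexarotene mean lies left of control for 14 members and right of it for Il20rb and Tgfbrap1. No error is shown because only group means were used.

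Macrophage markers were lower in the same tumors. Of 12 markers, 7 were listed and all 7 were lower, where 56.7% of all genes listed were lower. Among them were Cd14 (310.1 against 1548), C1qa (752 against 2023) and Csf1r, which is also a member. The pan-leukocyte markers Cd52 and Coro1a were lower as well. The only T cell marker listed, Zap70, was 1.25 against 9.65, and of dendritic cell markers Itgax was 48.1 against 162, while no B cell, NK cell or neutrophil marker was listed. The part of these cells in the lower cytokine values was not tested.

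The 4 members Il20rb, Tnfrsf12a, Tgfb3 and Tgfbrap1 were in both tables, and their values can be set side by side at the same dose and time, though V-125 and bexarotene share the 4 control tumors and were normalized separately. The control means of the shared genes were 1.003 to 1.012 times as high in the V-125 table as in the bexarotene table. Il20rb had opposite differences from control, with a log2 ratio of group means of -0.86 for V-125 and 0.94 for bexarotene. The bexarotene mean of 4767 lay above all 4 V-125 tumors and above the highest control tumor, at 4225, and was 3.46 times the V-125 mean of 1378. Over the 3 control tumors without replicate 3, the bexarotene mean was 2.49-fold higher.

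Tnfrsf12a (log2 ratio -0.91 for V-125, -1.38 for bexarotene), Tgfb3 (-0.65, -0.88) and Tgfbrap1 (0.52, 0.51) lay on the same side of control under both agonists. For each of these 3 genes, the bexarotene mean, at 481, 5107 and 936, fell inside the range of the 4 V-125 tumors. V-125 was not tested against bexarotene for any of the 4 genes, because only group means of bexarotene were used here. No statement is made on whether the agonists act alike.

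**Figure D4:**
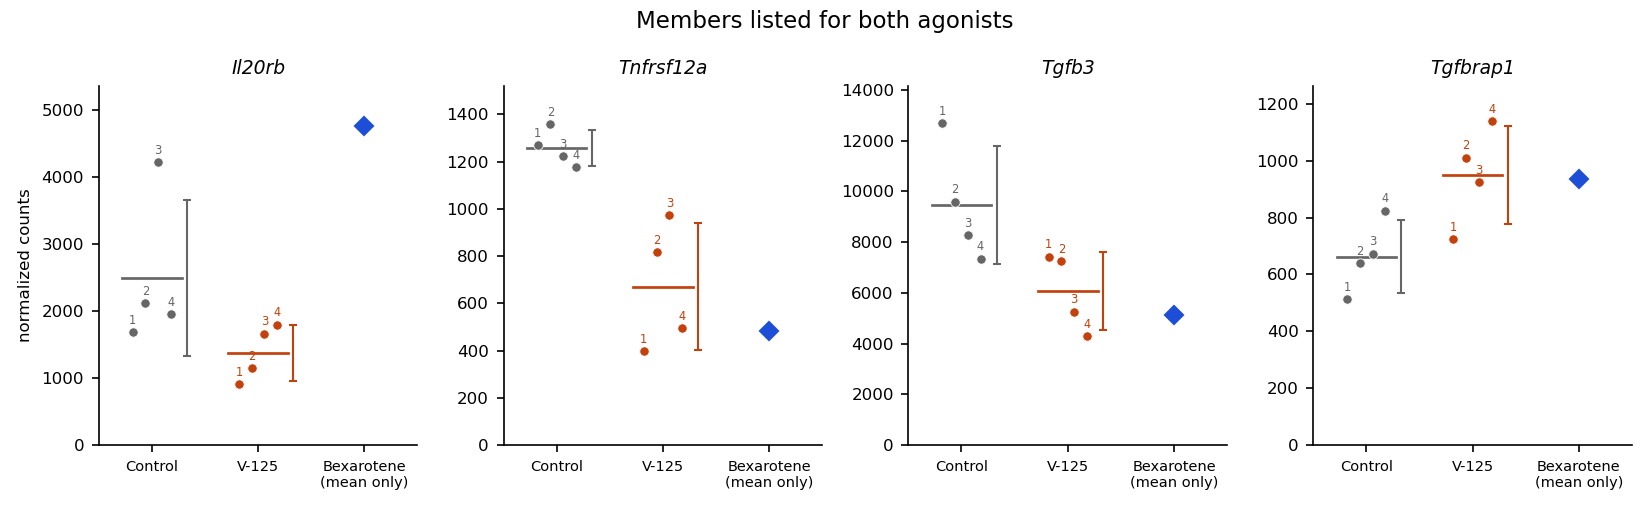
Normalized counts (linear axes) of Il20rb, Tnfrsf12a, Tgfb3 and Tgfbrap1 in each control and V-125 tumor (points with replicate numbers; line, mean; bar, SD of 4 tumors) and the bexarotene group mean (diamond, no error given). The bexarotene mean of Il20rb, 4767, lies above every tumor shown, and those of the other 3 genes lie among the V-125 tumors.

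Genes downstream of these receptors were read from lists of pathway genes. Of all genes listed, 48.6% were lower for V-125 and 56.7% for bexarotene, and no list was tested against these shares. For the NF-kB and TRAF list, 1 of 32 genes was in the V-125 table, Traf4, with 1787 to 2455 in V-125 tumors and 2584 to 2907 in control tumors, and it did not pass the edgeR test. For bexarotene 8 of 32 were listed, of which 7 were lower (Rela, Relb, Rel, Nfkbia, Myd88, Irak2 and Bcl3) and Irak1 was higher. Bcl3, a nuclear partner of NF-kB, had the widest difference of these, 95.9 against 322 (log2 ratio -1.74). Of 21 JAK-STAT and SOCS genes, V-125 had 0 listed and bexarotene 2, Jak3 and Stat3, both lower.

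Of 20 interferon-response genes, 3 were listed for V-125, with Irf5 and Irf8 higher and Oas2 lower, and 0 of these passed the edgeR test. Irf5 and Irf8, factors of myeloid and B cells, were at 476 and 683 in V-125 replicate 1 and at no more than 121 and 219 in the other V-125 tumors. For bexarotene 4 were listed, Irf1, Irf7, Isg15 and Oas2, all lower, where 56.7% of all genes listed were lower. Of 15 SMAD genes, 0 were listed in either table.

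Of 43 cytokines and receptors whose symbols fall outside those used to choose the members, 3 were listed under V-125. Cx3cr1 and Eda were higher and Kit lower, and 0 of these passed the edgeR test. Eda, a TNF family ligand, was the only one of them without overlap. It stood at 63.45 to 117.5 in V-125 tumors and at 28.8 to 57.2 in control tumors. For bexarotene 7 of 43 were listed, of which 5 were lower (Cx3cl1, Clcf1, Ltb, Fas and Kit) and 2 higher. The share of all genes listed that were lower was 56.7%. The chemokine Cx3cl1 was 378 against 1009, and the lymphotoxin chain Ltb was 19.8 against 46.2. The higher ones were Fasl, a death ligand of the TNF family, at 10.8 against 0.862, and Thpo, the growth factor of megakaryocytes, at 26.5 against 4.84.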

How the data were processed

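The members, gene lists and tests were chosen with earlier results of these data known. RNA of 12 mammary tumors, from 4 mice per group, was measured by poly(A) RNA sequencing. The labels' processing notes name STAR 2.6.1d, featureCounts 1.5.0-p3 and limma, without their order; the genome build and strand setting are not given in the sources used here. Of the 1589 gene IDs in the V-125 table, 1588 matched a GRCm38 annotation, 1537 with identical positions, and coordinates are those of GRCm38.

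The authors deposited, for V-125 and control, raw counts per gene and tumor, FPKM values (scaled by gene length and library depth) and a normalized count signal (counts divided by a size factor). For bexarotene and control, only the authors' group means of the normalized count signal were used here. The deposited tables also hold the authors' fold changes and p-values, which were used for nothing but to check that listed genes have an unadjusted p under 0.05. For V-125 and control, per-tumor columns not mapped to a sample numbered 0.

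Counts were tested with edgeR 4.0.16 (R 4.3.3), quasi-likelihood, V-125 against control tumors, with library sizes scaled by the authors' size factors, genes with few reads filtered (filterByExpr) and Benjamini-Hochberg adjustment over the 1333 listed genes fitted, which is not a false discovery rate over all genes. Alternatives used DESeq2 1.42.0, limma-voom (limma 3.58.1), other scalings and filters, a replicate block and each tumor left out. Exact permutation tests were two-sided over the 70 assignments of 8 tumors. Log2 ratios of group means used a pseudocount of 1, which makes ratios of low genes smaller, and 2-fold is an absolute log2 ratio over 1. The fits were tested on simulated counts. All members are named; per-tumor values are given for members of the V-125 table whose groups did not overlap, that edgeR called, or that were in both tables, and means for members of the bexarotene table past 2-fold or in both tables. Values of the other members are given beyond that rule, chosen after they were seen. V-125 and bexarotene share the control tumors. The tables' normalizations were made separately.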

Additional observations from a re-analysis of the deposited data

Results flagged for a closer look

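In 3 of the 28 groups of 4 tumors examined (10.7%), 1 tumor stood far from the other 3 by Dixon's test, where chance gives about 1 in 20. Tnfaip2 was flagged in both groups. V-125 replicate 1 stood at 560.0 normalized counts with the next tumor at 251.7, a gap of 0.869 of the range, and control replicate 2 stood at 292.5 with the next at 169.0, a gap of 0.845. Cxcl2 was flagged in V-125 replicate 1, at 1.022 normalized counts, or 1 read, where the other 3 V-125 tumors were at 0. With 3 tumors at 0, any read in the remaining tumor gives this flag.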

How the results depend on the processing

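All 12 members fitted by edgeR kept their direction under every alternative run (200 of 200 single-member results, 0 reversed), and 10 of these 200 passed an adjusted p of 0.05 that the main test did not reach. The members were listed for this same difference in these same tumors, so a reversal was unlikely from the start. The adjustment over the reference genes changes only the p, so its direction could not differ. The kept directions are therefore no independent evidence of a stable effect. No member was called by edgeR, and 1 was called with DESeq2 size factors on the listed genes, 9 by DESeq2 and 1 by limma-voom. Leaving out 1 tumor at a time gave 0 to 1 members, the 1 being Tnfrsf12a without V-125 replicate 3 (adjusted p = 0.0492 by edgeR). Members whose groups did not overlap numbered 5 to 7 with 1 tumor left out, against 4 with all tumors, while 44.3% to 53.8% of all listed genes did not overlap in the same settings, and were 7 without V-125 replicate 2 or without control replicate 4, since fewer tumors overlap less easily. Over all listed genes, edgeR called 120, DESeq2 1116 and, with adjustment over 55450 genes of the reference, edgeR called 0. With 1 tumor left out, edgeR called 237 of the listed genes without control replicate 3, 29 without control replicate 1, 1 without control replicate 4 and 0 without V-125 replicate 2, V-125 replicate 4 or control replicate 2. The count of V-125 members past 2-fold was 5, and 7 without a pseudocount, the added Il4 and Tnf both being lower. The count for bexarotene was 8 under all alternatives.

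The replicate numbers are shared by V-125 and control tumors without pairing them. The correlations of same-numbered deviations were 0.09, -0.05, -0.17 and 0.04 over 1373 genes, and 1 of 4 V-125 tumors correlated best with its own number. A fit with the replicate number as a block called 0 members and 19 of the listed genes.

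Other scalings moved the median of the listed genes by -0.030 to -0.001 (log2). Values of Cxcl2, Cxcl17, Mzb1 and Ccl12 rest on few reads, as do those of Cd2, Cd28, Mcpt4 and Hba-a2 in most tumors. The same holds for the lower group mean of Tnfsf8, Zap70, Fasl and Thpo in the bexarotene comparison. The main limits are that both tables hold preselected genes, that bexarotene has no spread here, and that bulk tumors mix cell types; the cause of the calls that differ between tools was not tested.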

Other observations

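Other cell type markers were read from the same tables. For V-125, Kdr, an endothelial receptor and the 1 of 6 endothelial markers listed, stood at 538.5 to 834.9 in V-125 tumors and 251 to 498 in control tumors without overlap (edgeR adjusted p = 0.0520). The myoepithelial markers Acta2 and Trp63, 2 of 5 listed, had means of 259 and 15.5 in V-125 tumors against 686 and 71.8 in control tumors, with overlap. The erythrocyte markers Hba-a2 and Hbb-bt, 2 of 5 listed, were lower. Of the 6 mast cell markers, Mcpt4 had a higher mean and Kit, which mammary epithelium also expresses, a lower one. Mcpt4 stood at 29.6 in V-125 replicate 1, at 0 to 1.90 in the other V-125 tumors and at 0 to 0.80 in control tumors. No fibroblast or adipocyte marker was listed.

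For bexarotene, the adipocyte marker Fabp4, 1 of 5 listed, had a group mean of 530.2 against 157 in control tumors, and Myh11, 1 of 5 myoepithelial markers listed, 113 against 39.4. The epithelial keratins Krt8 and Krt18, 2 of 6 epithelial markers listed, were lower, as were 4 of 5 erythrocyte markers and Kit among 6 mast cell markers. No endothelial or fibroblast marker was listed.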
